A study of Mus musculus with 15 samples.

Results

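The Ifit genes (interferon-induced proteins with tetratricopeptide repeats) described here are Ifit1 (ENSMUSG00000034459.9), Ifit2 (ENSMUSG00000045932.13), Ifit3 (ENSMUSG00000074896.4) and Ifit3b (ENSMUSG00000062488.10). They were taken by symbol from the table of normalised values, where all 4 were measured among 17712 genes. The samples were 15 subcutaneous tumours of the MC38 mouse colon carcinoma line in C57BL/6 mice, each injected once its size was about 5 mm and removed 24 h later for stranded mRNA sequencing. Vehicle (PBS with 5% DMSO and 5% glucose) went into 3 tumours. BO-112 (50 µg), a poly I:C preparation that mimics double-stranded RNA, went into 4. DMXAA (100 µg), an agonist of mouse STING, went into 4, and both agents at these doses went into 4, all in a volume of 100 µL. The labels call the tumours of a group biological replicates. MC38 is 1 grafted line and the RNA came from whole tumours, so for every level below fewer cells of a type and less RNA per cell cannot be told apart.

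Ifit genes are almost silent in resting cells and are switched on by type I interferon, whose receptor leads to the binding of transcription factors at a promoter element named the ISRE. The factor Irf3, activated downstream of both RNA sensors and STING, can also act on these promoters without interferon. The proteins are cytosolic: Ifit1 binds RNA whose cap lacks the methyl mark of host messenger RNA and blocks its translation, Ifit2 binds RNA and restricts several viruses in mice, and human IFIT3 is known as a partner of IFIT1. Ifit3b is a close copy of Ifit3.

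The promoters are shown first because they differ in exact matches to the core of the element through which interferon acts. The core searched was GAAA, any 2 bases, then GAAA, on both strands, in windows from 250 bases before to 50 bases after each annotated start. The RefSeq promoter table (GRCm38.p6) held all 4 genes, each on the plus strand of chromosome 19. The 200 bases before the start are printed 5′ to 3′, at chr19:34640689-34640888 for Ifit1, chr19:34550494-34550693 for Ifit2, chr19:34583329-34583528 for Ifit3 and chr19:34607757-34607956 for Ifit3b, with matches in capitals, which read as the reverse complement of the core.
Ifit1: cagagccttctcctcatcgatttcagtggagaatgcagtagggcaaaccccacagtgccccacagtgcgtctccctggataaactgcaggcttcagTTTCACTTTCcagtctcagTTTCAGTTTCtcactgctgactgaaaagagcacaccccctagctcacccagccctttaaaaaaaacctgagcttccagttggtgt
Ifit2: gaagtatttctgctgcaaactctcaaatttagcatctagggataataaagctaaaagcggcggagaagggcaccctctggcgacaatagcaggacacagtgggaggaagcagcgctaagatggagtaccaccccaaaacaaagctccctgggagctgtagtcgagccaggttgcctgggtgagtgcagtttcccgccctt
Ifit3: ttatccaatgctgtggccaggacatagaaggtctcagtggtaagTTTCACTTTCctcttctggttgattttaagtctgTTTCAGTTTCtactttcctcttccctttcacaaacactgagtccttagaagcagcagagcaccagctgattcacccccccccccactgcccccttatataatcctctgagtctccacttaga
Ifit3b: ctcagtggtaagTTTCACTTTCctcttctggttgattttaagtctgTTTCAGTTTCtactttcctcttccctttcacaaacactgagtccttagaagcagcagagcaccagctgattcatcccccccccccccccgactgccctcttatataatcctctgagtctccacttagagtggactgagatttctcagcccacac

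Ifit1, Ifit3 and Ifit3b each held 2 matches. Counting the base before the start as -1, those of Ifit1 began at -104 and -85, with 9 bases between them. Those of Ifit3 began at -156 and -122, and those of Ifit3b at -188 and -154, with 24 bases between them in each gene. In all 3 genes the upstream match read TTTCACTTTC and the downstream one TTTCAGTTTC. Ifit2 held none in either of its 2 windows, which says only that these letters are not there. The bases between these windows were not searched. Ifit2 held 1 match to the GAS letters TTCNNNGAA, from -241 to -233, and the other members held none. Of 32851 windows in the table, 3.44% held at least 1 ISRE core and 0.225% held 2 or more, and 8.30% held a GAS match. The Ifit3 and Ifit3b windows were identical at 259 of 274 aligned positions (94.5%), and their longest transcripts at 1663 of 1700 (97.8%). Stretches of 150 bases, the read length, that occur in both genes numbered 296, of 1596 in Ifit3 and 1851 in Ifit3b, so the split of reads between this pair is uncertain. How the authors treated reads that fit both is not given in the sources used here.

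The libraries held 12725316 to 19660511 reads, and every member had at least 199 reads in every library, so counting error is small for all 4. Levels are counts scaled to an adjusted library size (CPM), as deposited. The factor that adjusts the total of each library ran from 0.850 in DMXAA 2 to 1.08 in vehicle 3. Genes of skeletal muscle stood out in 4 libraries (DMXAA 1, DMXAA 3, BO-112 1 and vehicle 2), with 58.0 to 291 CPM of the muscle actin gene Acta1. The median correlation of a library with the rest of its group, over all genes, was lowest for DMXAA 2 at 0.933 and lay from 0.966 to 0.982 elsewhere. Of 11 epithelial markers 7 were measured, with a summed level of 33.4 to 89.7 CPM under vehicle, 10.7 to 15.5 under BO-112, 19.3 to 45.5 under DMXAA and 14.2 to 31.8 under both agents. The vehicle and BO-112 groups did not overlap, and the part of this difference in the Ifit levels was not tested. This difference rested mainly on Cdh1, which ranged from 4.94 to 82.6 CPM over the 15 tumours. No other measured epithelial marker exceeded 3.74 CPM, the highest value of Lgals4. Epcam, the defining marker, lay between 0.0386 and 2.70 CPM with 0 reads in 1 library, so the labelled carcinoma was weakly marked. Summed neutrophil markers (9 of 11 measured) ranged from 34.2 to 55.6 CPM under vehicle, from 50.8 to 189 under DMXAA, from 136 to 357 under both agents and from 404 to 433 under BO-112. The Ifit levels had the same order of groups, and the part of these cells in them was not tested. The order rested on Clec4e, at 1.57 to 6.81, 5.09 to 31.4, 54.5 to 135 and 275 to 329 CPM in those groups. The 8 other markers summed to 32.7 to 48.8, 45.7 to 158, 81.1 to 249.96 and 84.7 to 129 CPM, with both agents reaching above BO-112. Summed NK cell markers (7 of 7 measured) were 39.2 to 59.2, 76.9 to 118, 61.2 to 88.4 and 81.4 to 107 CPM, lowest under vehicle without overlap, and their part was not tested either. Ly6g, the defining neutrophil marker, was at 0 reads in 5 libraries. Summed macrophage markers (11 of 11 measured) did not follow that order, with ranges of 2751 to 3436, 2955 to 5788, 2921 to 3646 and 2956 to 3497 CPM in the groups as just listed.

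Ifit1, the cap-sensing member, stood at 118, 125 and 81.9 CPM in vehicle tumours 1 to 3 and at 644, 794, 661 and 623 CPM in BO-112 tumours 1 to 4. It stood at 158, 164, 151 and 219.8 CPM in DMXAA tumours 1 to 4, and at 469.7, 472, 345 and 314 CPM in the tumours given both agents. The 4 groups did not overlap, and their order from low to high was vehicle, DMXAA, both agents, BO-112.

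Ifit2 stood at 116, 133 and 73.9 CPM with vehicle and at 726, 969, 789 and 697 CPM with BO-112. It stood at 186, 115, 116 and 210.0 CPM with DMXAA and at 427, 456, 318 and 372 CPM with both agents. The order was the same, but DMXAA 2 and DMXAA 3 lay within the vehicle range, so those 2 groups overlapped.

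Ifit3 stood at 111, 133 and 57.8 CPM with vehicle and at 987, 1189, 1001 and 989 CPM with BO-112. It stood at 273, 152, 201 and 311 CPM with DMXAA and at 623, 673, 411 and 472 CPM with both agents. No groups overlapped, and among the BO-112 tumours the second stood above 3 that were nearly equal.

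Ifit3b, the least abundant member, stood at 23.4, 28.4 and 11.8 CPM with vehicle and at 245, 323, 236 and 234 CPM with BO-112. It stood at 73.5, 37.8, 50.8 and 84.6 CPM with DMXAA and at 162, 158, 102 and 108 CPM with both agents. Again no groups overlapped. Vehicle 3 was the lowest vehicle tumour and BO-112 2 the highest BO-112 tumour for all 4 genes. DMXAA 2 was the lowest DMXAA tumour for Ifit2, Ifit3 and Ifit3b but not for Ifit1, and DMXAA 4 was the highest for all 4.

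**Figure D1:**
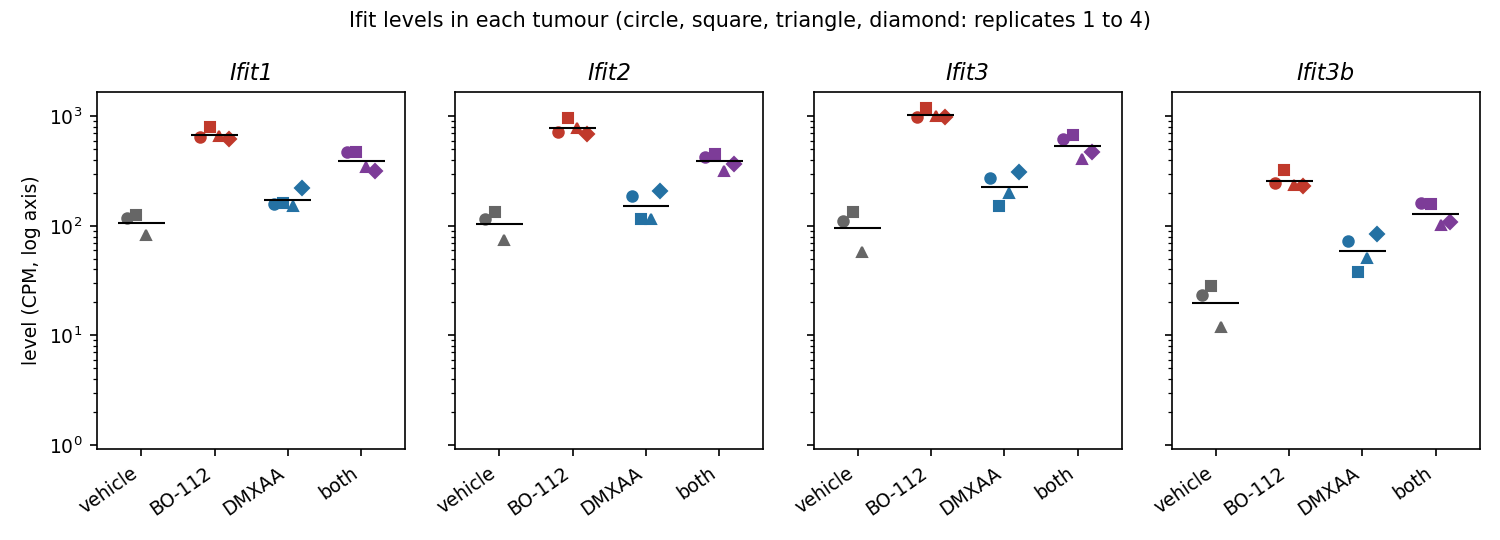
Level of each Ifit gene in each of the 15 tumours (CPM, log axis), by group, with the marker shape giving the replicate number and the bar the mean on the log scale. Every BO-112 tumour lies above every other tumour for each gene, from 623 CPM up for Ifit1 and from 234 CPM up for Ifit3b.

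Summed over the 4 genes, the family made up 0.0243% to 0.0440% of the reads in vehicle tumours and 0.238% to 0.319% with BO-112. With DMXAA the share was 0.0397% to 0.0849%, and with both agents 0.120% to 0.178%. To compare genes with each other, levels were divided by the summed exon length (CPM per kb). In vehicle tumours Ifit3 stood at 57.7 ± 22.2 CPM per kb (SD, n = 3), Ifit1 at 40.8 ± 8.76, Ifit2 at 27.4 ± 7.73 and Ifit3b at 10.6 ± 4.25. The ranges of Ifit3 and Ifit1 overlapped there, as did those of Ifit1 and Ifit2, while Ifit3b lay below the other 3. With BO-112 the same order held at 597 ± 56.6, 256 ± 29.1, 202 ± 31.1 and 130 ± 21.3 CPM per kb (SD, n = 4), where Ifit3 lay above all others and the ranges of Ifit1 and Ifit2 still overlapped. Within every vehicle tumour and every BO-112 tumour, Ifit3 stood highest per length, followed by Ifit1, Ifit2 and Ifit3b. Per length, Ifit3 supplied 41.5% ± 3.70 (SD, n = 3) of the family's level in vehicle tumours and 50.4% ± 1.10 (SD, n = 4) with BO-112. The share of Ifit1 was 30.7% ± 3.71 (SD, n = 3) and 21.6% ± 0.186 (SD, n = 4) in those groups.

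BO-112 raised all 4 Ifit genes. Each change is given on the log2 scale with the SE of a limma model of all 15 libraries, and each p is adjusted by Benjamini-Hochberg over 17712 genes, with a threshold of 0.05. Ifit3b rose by 3.69 ± 0.30 (adjusted p = 2.64e-06), a 12.9-fold change with a 95% interval of 8.25 to 20.3. Ifit3 rose by 3.45 ± 0.28 (adjusted p = 2.33e-06), or 10.9-fold. Ifit2 rose by 2.92 ± 0.24 (adjusted p = 2.56e-06) and Ifit1 by 2.67 ± 0.19 (adjusted p = 1.32e-06), or 7.55-fold and 6.35-fold. By size of rise these genes ranked 65, 87, 141 and 175 of 17712. Higher calls took in 7.64% of all genes, and 18.1% lay higher without overlap between the groups, against 4 of 4 members by either measure. The members' median change was 3.18 and that of all genes -0.04.

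DMXAA against vehicle gave smaller Ifit changes, of which 2 passed the test, where 1.08% of all genes were called higher. Ifit3b rose by 1.56 ± 0.30 (adjusted p = 0.0223) and Ifit3 by 1.25 ± 0.28 (adjusted p = 0.0444). For Ifit1 the change was 0.68 ± 0.19 (adjusted p = 0.0985) and for Ifit2 0.53 ± 0.24 (adjusted p = 0.267). The groups did not overlap for 3 members, Ifit1 among them, against 6.52% of all genes lying higher. The members' median change was 0.97, and that of all genes 0.01. The 2 calls were weak: that of Ifit3b was lost without vehicle 1 (adjusted p = 0.0723) or vehicle 3 (0.131), and that of Ifit3 was kept only when the library left out was vehicle 2, DMXAA 2 or that of both agents 3. Neither passed in a fit to these 2 groups alone, where adjusted p was 0.268 for Ifit3b and 0.343 for Ifit3, nor without the 4 libraries high in muscle genes, where the changes were 1.76 for Ifit3b and 1.44 for Ifit3, nor after scaling by total count alone (1.44 and 1.12). Without DMXAA 2 the changes were 1.78 for Ifit3b, 1.44 for Ifit3, 0.70 for Ifit1 and 0.67 for Ifit2, with the same 2 called.

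With both agents, compared with the same vehicle tumours, all 4 Ifit genes rose, against 2.49% of all genes called higher and 9.92% lying higher without overlap. Ifit3b rose by 2.71 ± 0.30 and Ifit3 by 2.49 ± 0.28, both with an adjusted p of 0.000166. Ifit2 rose by 1.90 ± 0.24 (adjusted p = 0.000342) and Ifit1 by 1.88 ± 0.19 (adjusted p = 0.000125). These rises were 3.69-fold for Ifit1 to 6.53-fold for Ifit3b. The groups did not overlap for any member.

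**Figure D2:**
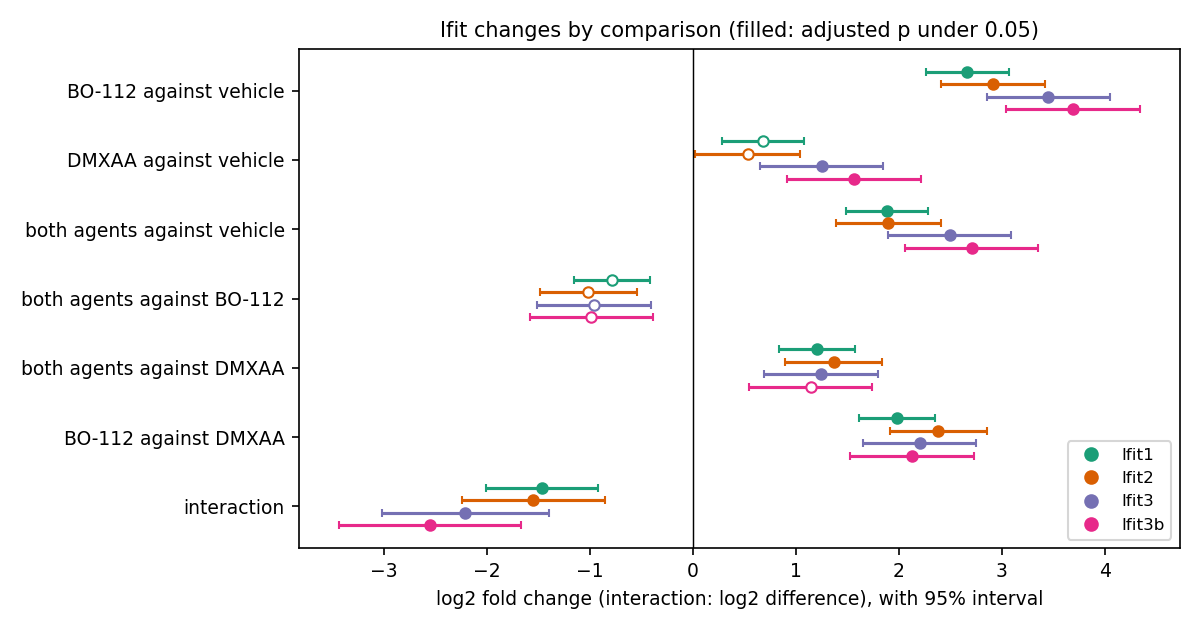
Log2 fold change of each Ifit gene in the 6 comparisons between groups, and the log2 difference of the interaction, each with its 95% interval from limma, where filled points have an adjusted p under 0.05. All points for BO-112 against vehicle lie between 2.67 and 3.69, and all points for both agents against BO-112 are open and lie between -1.02 and -0.78.

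Tumours given both agents were set beside those given BO-112 alone, which asks what adding DMXAA did. For Ifit2 the change was -1.02 ± 0.22 (adjusted p = 0.139), and for Ifit1 it was -0.78 ± 0.17 (adjusted p = 0.139). For Ifit3b it was -0.99 ± 0.28 (adjusted p = 0.243) and for Ifit3 -0.96 ± 0.26 (adjusted p = 0.219). None passed, and limma called 0 of 17712 genes (0%) here, as did limma-voom, while 1690 genes had an unadjusted p under 0.05. All 4 members were among those 1690, where 4.54% of all genes were lower, and all 4 lay lower without overlap, as did 6.11% of all genes. The 95% intervals reached from -1.15 to -0.41 for Ifit1, from -1.49 to -0.55 for Ifit2, from -1.51 to -0.41 for Ifit3 and from -1.59 to -0.39 for Ifit3b. The call depended on the fit: a fit to these 2 groups alone called all 4 members lower, with adjusted p between 0.0085 for Ifit2 and 0.0251 for Ifit3b, and array quality weights called Ifit1, Ifit2 and Ifit3.

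Against DMXAA alone, both agents gave higher Ifit levels without overlap for all 4 genes, as for 4.54% of all genes. The test called 3 members, where 0.717% of all genes were called higher. Ifit1 rose by 1.20 ± 0.17 (adjusted p = 0.00978), Ifit2 by 1.37 ± 0.22 (adjusted p = 0.0149) and Ifit3 by 1.24 ± 0.26 (adjusted p = 0.0371), while the change of Ifit3b was 1.14 ± 0.28 (adjusted p = 0.0659). All 3 calls were lost without DMXAA 3, or without the tumour given both agents numbered 1 or 2, and also in a fit to these 2 groups alone, which leaves the changes as they are, or without the 4 libraries high in muscle genes, where the changes were 1.05 for Ifit1, 1.33 for Ifit2 and 1.30 for Ifit3. Array quality weights ended that of Ifit3 (1.02, adjusted p = 0.0657). With 1 library left out, the call of Ifit3 was kept only without vehicle 2, vehicle 3, DMXAA 1, DMXAA 4 or that of both agents 3, and Ifit3b was called without vehicle 3, DMXAA 1 or DMXAA 4. Between the single agents all 4 were higher with BO-112, against 11.2% of all genes called higher and 12.1% lying higher without overlap. Those differences were 1.99 ± 0.17 for Ifit1 and 2.38 ± 0.22 for Ifit2, each with an adjusted p of 2.87e-05, and 2.20 ± 0.26 for Ifit3 (adjusted p = 0.000116) and 2.13 ± 0.28 for Ifit3b (adjusted p = 0.000240).

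The interaction is the change seen with both agents less the sum of the changes seen with each alone, on the log2 scale. It was negative for all 4 Ifit genes, against 1.15% of all genes called negative. For Ifit3b the single changes summed to 5.26 and both agents gave 2.71, a difference of -2.55 ± 0.41 (adjusted p = 0.0106). For Ifit3 the sum was 4.70 against 2.49, a difference of -2.21 ± 0.38 (adjusted p = 0.0145). Ifit1 had 3.35 against 1.88, a difference of -1.46 ± 0.26 (adjusted p = 0.0152), and Ifit2 had 3.45 against 1.90, a difference of -1.55 ± 0.32 (adjusted p = 0.0323). Doses were not varied, so this compares 1 dose of each agent. With total count scaling the calls of Ifit1 (adjusted p = 0.0503) and Ifit2 (0.0966) were lost. The call of Ifit2 was also lost in 8 of 15 fits with 1 library left out (vehicle 1 or 3, BO-112 1, 2 or 3, DMXAA 1, both agents 3 or 4), and all 4 calls without the 4 libraries high in muscle genes, where the differences were -1.75 for Ifit1, -1.80 for Ifit2, -2.42 for Ifit3 and -2.77 for Ifit3b.

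The proportions of the 4 genes to each other were compared within each tumour. There, log2 Ifit3 less log2 Ifit1 was -0.09, 0.09 and -0.50 in vehicle tumours 1 to 3 and 0.62, 0.58, 0.60 and 0.67 in BO-112 tumours 1 to 4. It was 0.79, -0.11, 0.42 and 0.50 with DMXAA and 0.41, 0.51, 0.25 and 0.59 with both agents. Vehicle thus lay below BO-112 and both agents without overlap, and DMXAA 2 alone of the DMXAA tumours fell inside the vehicle range. For Ifit3b against Ifit3 the ratio of CPM ranged from 0.205 to 0.214 under vehicle, from 0.236 to 0.271 under BO-112, from 0.249 to 0.272 under DMXAA and from 0.229 to 0.261 under both agents, so every treated tumour lay above every vehicle tumour. Because these 2 genes share sequence, reads misplaced between them would also enter this ratio.

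Of 18 such within-tumour comparisons (3 pairs of genes in 6 comparisons of groups), 6 reached a p of 0.0286 in a two-sided exact permutation test, the smallest that the group sizes allow. These were Ifit3 less Ifit1 for BO-112 (0.79) and both agents (0.61) against vehicle, Ifit3b less Ifit3 for BO-112 (0.24), DMXAA (0.31) and both agents (0.21) against vehicle, and Ifit2 less Ifit1 for BO-112 against vehicle (0.25). Adjusted over the 18 tests each exact p became 0.0857, so none passed the threshold. At this smallest p, 6 of 18 tests cannot pass the adjustment by themselves, so the result does not show that the proportions were equal. Over the 15 tumours, after each group's mean was removed, log2 levels correlated at r = 0.990 for Ifit3 with Ifit3b, 0.946 for Ifit2 with Ifit3 and 0.802 to 0.835 for Ifit1 with the other 3, values that share library and scaling.

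**Figure D3:**
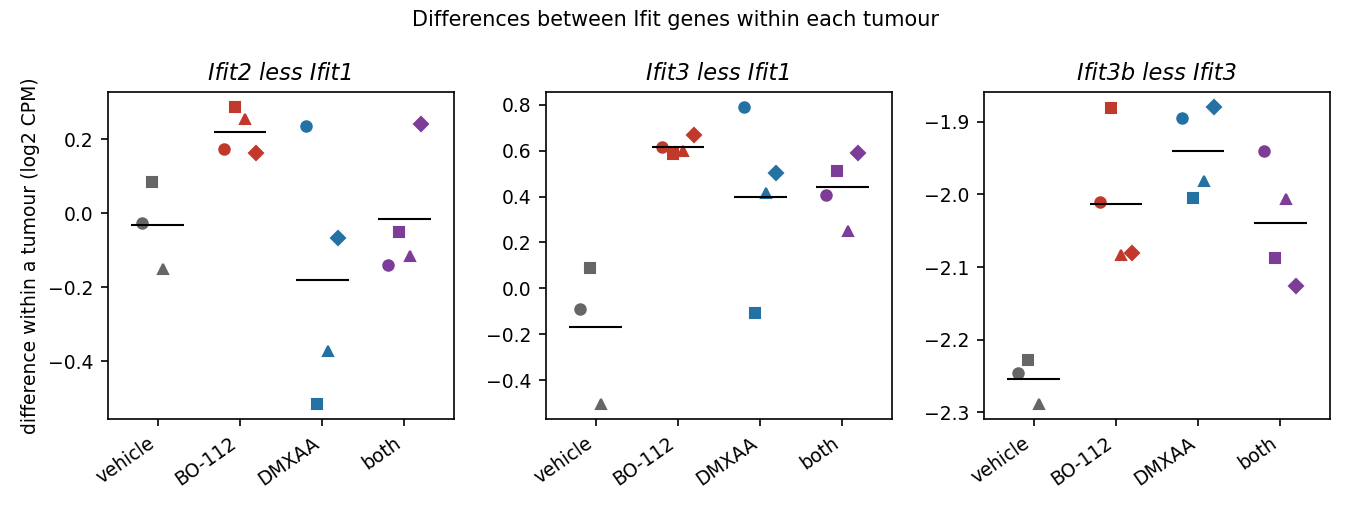
Differences in log2 CPM between pairs of Ifit genes within each tumour, by group, with a bar at the group mean and the marker shape giving the replicate number. Ifit3b less Ifit3 lies between -2.29 and -2.23 in vehicle tumours and above these values in all 12 treated tumours.

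Of 4 other mouse Ifit paralogs listed, Ifit1bl1 and Ifit1bl2 were measured, and both lie inside the cluster. Ifit1bl1 stood at 5.59, 6.57 and 4.83 CPM with vehicle, 155, 218, 144 and 117 CPM with BO-112, 37.9, 6.68, 16.6 and 42.4 CPM with DMXAA, and 79.9, 92.7, 43.9 and 62.7 CPM with both agents. It rose by 4.78 ± 0.48 with BO-112 (adjusted p = 1.23e-05), and ranked 14 among all genes; whether this exceeds the rise of the 4 members was not tested. The change with DMXAA was 1.87 ± 0.48 (adjusted p = 0.0761), and with both agents it rose by 3.58 ± 0.48 (adjusted p = 0.000584). DMXAA 2 again stood lowest of its group, near the vehicle tumours. Ifit1bl2 was scarce, at 1.48 to 2.10 CPM with vehicle and 6.48 to 9.23 CPM with BO-112, a rise of 2.02 ± 0.32 (adjusted p = 0.000605). An annotated start of Ifit1bl2 lies head to head with that of Ifit1 and the same 2 ISRE matches lie in both windows. The window of its other annotated start held 0 ISRE and 0 GAS matches. In vehicle tumours Ifit1 stood at 40.8 CPM per kb and Ifit1bl2 at 0.551. Both agents left Ifit1bl2 at 5.92 to 7.99 CPM, overlapping BO-112 alone, with a change of -0.12 ± 0.29 (adjusted p = 0.978).

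The cluster's measured genes run in the order Ifit2, Ifit3, Ifit1bl1, Ifit3b, Ifit1bl2 and Ifit1 in the RefSeq gene table. Of the 5 measured genes on each side, 3 of 10 rose with BO-112, where 7.64% of all genes did. These were Ch25h, the interferon-inducible cholesterol 25-hydroxylase, by 1.15 ± 0.23 (adjusted p = 0.00422), the death receptor gene Fas by 1.06 ± 0.23 (adjusted p = 0.0068), and Stambpl1, which encodes a deubiquitinase, by 0.51 ± 0.10 (adjusted p = 0.00374). The genes next to the cluster were not called: Lipa, lysosomal acid lipase, changed by 0.17 ± 0.20 (adjusted p = 0.663) and Slc16a12, a solute carrier, by -1.79 ± 0.75 (adjusted p = 0.14). None of the 10 was called with DMXAA or with both agents against vehicle, by limma at an adjusted p under 0.05. The 6 Ifit genes of the cluster were all called with BO-112 and with both agents.

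**Figure D4:**
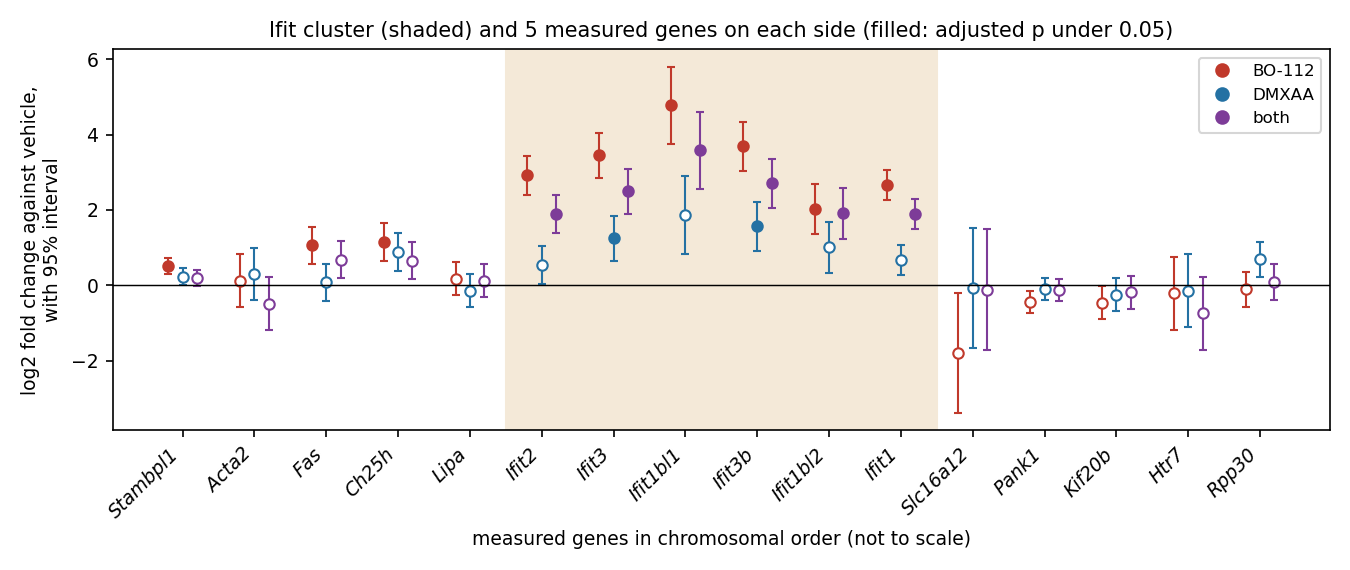
Log2 fold change against vehicle, with 95% intervals, of the 6 measured genes of the Ifit cluster (shaded) and 5 measured genes on each side, in chromosomal order and not to scale, where filled points have an adjusted p under 0.05. Inside the cluster the changes with BO-112 lie between 2.02 and 4.78, and outside it the highest is 1.15.

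Some of the genes that act upstream of Ifit transcription also changed. The interferon beta gene Ifnb1 ranged from 0.0908 to 0.178 CPM under vehicle (1 to 2 reads) and from 0.179 to 0.641 CPM under DMXAA (3 to 8 reads). It ranged from 1.21 to 2.30 CPM under both agents (16 to 37 reads) and from 5.29 to 11.0 CPM under BO-112 (79 to 183 reads). The order of groups was that of the Ifit levels, with vehicle and DMXAA nearly touching. Among genes of the interferon receptor pathway, BO-112 raised Stat2 by 1.81 ± 0.28 (adjusted p = 0.000536), Irf9 by 0.94 ± 0.14 (adjusted p = 0.000531) and the receptor chain gene Ifnar2 by 0.56 ± 0.14 (adjusted p = 0.0177). Of 15 sensing genes 8 rose with BO-112, 1 with DMXAA and 6 with both agents, where 7.64%, 1.08% and 2.49% of all genes were called higher. Irf7, an interferon-inducible member of the Irf factors, rose by 2.99 ± 0.26 with BO-112 (adjusted p = 3.64e-06) and by 1.48 ± 0.26 with DMXAA (adjusted p = 0.0136), while the RNA sensor gene Ifih1 rose by 1.81 ± 0.17 with BO-112 (adjusted p = 6.36e-06).

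Across all 15 tumours the mean log2 level of the 4 Ifit genes correlated with that of Ifnb1 at r = 0.927, and after group means were removed at r = -0.255. Within the DMXAA group the orders were opposed: DMXAA 2 had the highest Ifnb1 (8 reads) and the lowest Ifit mean, and DMXAA 4 had the lowest Ifnb1 (3 reads) and the highest Ifit mean. Counts this low do not order those 4 tumours reliably. Vehicle 2 likewise had the lowest Ifnb1 (1 read) and the highest Ifit mean of its group. With more reads, BO-112 2 (183 reads) and both agents 2 (37 reads) were each highest of their group in Ifnb1 and Ifit mean. Both agents 3 (16 reads) was lowest in both, while BO-112 3 had the lowest Ifnb1 and BO-112 4 the lowest Ifit mean. Isg15, the ubiquitin-like interferon-stimulated gene with ample reads, stood at 155, 261, 188 and 173 CPM in DMXAA 1 to 4 and was also highest in DMXAA 2.

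**Figure D5:**
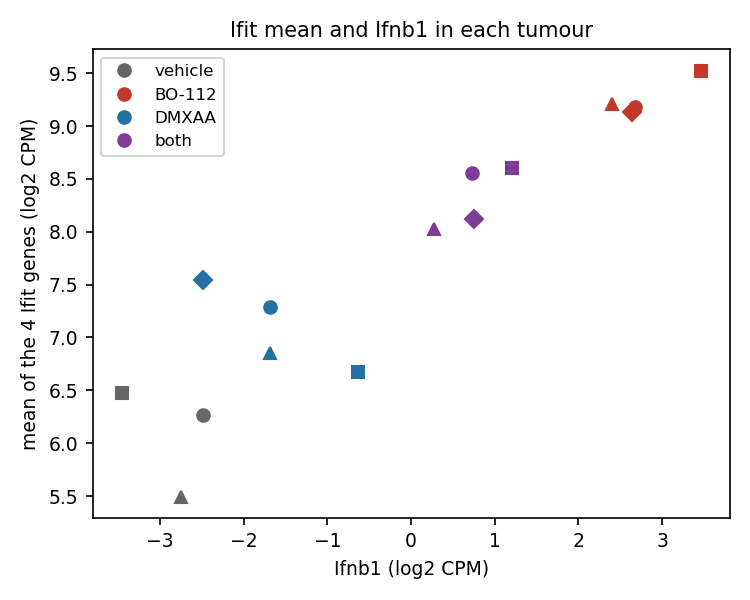
Mean log2 CPM of the 4 Ifit genes against log2 CPM of Ifnb1 in each tumour, coloured by group, with the marker shape giving the replicate number. The groups step up together, with r = 0.927 over 15 tumours, while within the DMXAA group the tumour with the highest Ifnb1 has the lowest Ifit mean. With BO-112 and with both agents, the tumour with the highest Ifnb1 also has the highest Ifit mean.

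Other interferon-stimulated genes were raised as well. Of 39 measured genes of a list of these outside the family, 39 rose with BO-112 (median change 1.93), 11 with DMXAA (0.71) and 32 with both agents (1.42), and 20 had a negative interaction (median -1.34). The shares of all genes called were 7.64%, 1.08%, 2.49% and 1.15%. This list was chosen with earlier results of these data known, so the counts are not independent support. Stat2, Irf9, Irf7 and Ifih1, named above among the genes upstream, are also on this list. Usp18, which encodes the protease that removes Isg15, rose by 2.98 ± 0.18 with BO-112 (adjusted p = 1.21e-06) and by 1.20 ± 0.18 with DMXAA (adjusted p = 0.00612). For Isg15 these were 2.89 ± 0.20 (adjusted p = 1.32e-06) and 1.34 ± 0.20 (adjusted p = 0.00552). The median changes of the 4 Ifit genes in the same comparisons were 3.18, 0.97 and 2.20, with an interaction of -1.88. In the promoter table, 28 of the 39 genes were found, and 13 of them (46.4%) held an ISRE core in at least 1 window, 6 of them with 2 or more, against 3.99% of all 27025 genes in that table.

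The genes most like the Ifit genes were ranked by Pearson's r between log2 CPM and the mean of the 4 members over the 15 tumours, among 12423 genes with a mean of at least 1 CPM. The members, genes without a symbol, mitochondrially encoded genes and those named as clones, predicted genes or pseudogenes were left out of the ranking. The highest were Rsad2, the antiviral enzyme viperin (r = 0.996), Oasl1 (0.993), Trim30a (0.993), Cmpk2 (0.992), Mx2 (0.992), Clec4e (0.992), Ifi44 (0.991) and Il1rn (0.990). After group means were removed these values lay between 0.878 for Il1rn, the interleukin 1 receptor antagonist, and 0.967 for Mx2, an interferon-induced GTPase. Clec4e, the myeloid lectin receptor Mincle, is also one of the neutrophil markers summed above. Ifit1bl1 ranked 41 on this scale, Isg15 124 and Ifnb1 176.

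Genes of the machinery on which Ifit proteins act were also counted. Of 11 measured genes for capping and decapping enzymes, 1 rose with BO-112, the decapping enzyme gene Dcp2, by 0.63 ± 0.12 (adjusted p = 0.00328), and none was called by limma with DMXAA or both agents against vehicle. With 7.64%, 1.08% and 2.49% of all genes called higher, these counts are near the background. Cmtr1, which places the cap methyl mark whose absence Ifit1 senses, had a change of 0.35 ± 0.33 with BO-112 (adjusted p = 0.566). None of 14 subunits of eIF3, the translation factor that Ifit1 and Ifit2 are known to bind, was called by limma in any comparison with vehicle, which against the same shares says little about them. Of 13 other genes whose products act on RNA in antiviral defence, 12 rose with BO-112, 2 with DMXAA and 7 with both agents, and 4 had a negative interaction, against 7.64%, 1.08%, 2.49% and 1.15% of all genes. Among these were Oas1a, which encodes a sensor that activates RNase L, by 2.14 ± 0.16 (adjusted p = 1.38e-06) and the exonuclease gene Isg20 by 2.72 ± 0.24 (adjusted p = 4.04e-06), both with BO-112. Some of these genes are also on the list of interferon-stimulated genes, and both lists were chosen with earlier results of these data known.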

How the data were processed

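Messenger RNA of 15 tumours in 4 groups was measured. The authors' tools were STAR, edgeR and limma with the mm39 build, per the submitters' processing notes; versions and settings are not given in the sources used here. The deposited table holds log2 CPM for 17712 genes in 15 named columns, with 0.5 reads added before the log; whole reads were recovered from all of its values (100%, tolerance 1e-06). A second table of counts has 15 per-sample columns with no names, which were not used. Symbols and exon lengths came from GENCODE M21 by identifier.

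On the deposited log2 CPM a mean for each group was fitted with limma 3.58.1 in R 4.3.3 (intensity trend, robust moderation), with 6 comparisons and the interaction, with Benjamini-Hochberg adjustment across the 17712 genes and a threshold of 0.05. The fit was tested on simulated counts with the same spread setting for all genes and groups, which does not cover groups of unequal spread. CPM values printed include the added reads. With 3 or 4 tumours a group, p-values rest on a spread shared by the groups. Alignments used Biopython 1.88. The Ifit genes and all lists were chosen with earlier results of these data known. Named were the 4 members, their paralogs, up to 3 genes per list (lowest adjusted p for BO-112 against vehicle), Ifnb1, Isg15, Ch25h, Irf7 and the 8 most similar genes (1 further named gene is not reported here); Cmtr1, Lipa, Slc16a12 and marker genes were named outside this rule, after their values were seen. Alternatives were other scalings, only genes reaching 1 CPM in 4 or more libraries, limma-voom, 2 reads added for the differences between members, array quality weights, a replicate block, the compared groups alone, and leaving out the 4 libraries with Acta1 above 50 CPM or each library in turn.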

Additional observations from a re-analysis of the deposited data

Results flagged for a closer look

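The interaction term, which tests whether adding DMXAA acted differently on tumours with and without BO-112, differed from 0 in limma for all 4 Ifit genes, at -1.46 for Ifit1, -1.55 for Ifit2, -2.21 for Ifit3 and -2.55 for Ifit3b on the log2 scale. Without BO-112, adding DMXAA gave 0.68, 0.53, 1.25 and 1.56 in that order, and with BO-112 it gave -0.78, -1.02, -0.96 and -0.99. Of these changes only those of Ifit3 and Ifit3b without BO-112 had an adjusted p under 0.05 in limma. All 4 interaction calls were lost without the 4 libraries high in muscle genes.

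Among the BO-112 tumours, replicate 2 stood apart for Ifit3 and Ifit3b. Its gap to the next tumour was 0.932 of the group's whole range for Ifit3 and 0.874 for Ifit3b, above Dixon's 95% critical value for 4 samples. Of 12 sets of values examined, each of 1 gene in 1 group of 4 tumours, 2 stood out in this way, and chance marks about 1 in 20. Both rest on the same tumour, and these 2 genes share sequence and are not independent.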

How the results depend on the processing

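Under 23 alternatives, BO-112 against vehicle, both agents against vehicle and BO-112 against DMXAA each kept 4 of 4 Ifit genes called. For DMXAA against vehicle the count of 2 became 0 with total count scaling, in a fit to the 2 groups alone or without the 4 libraries high in muscle genes, 1 with limma-voom, and 0 to 2 with 1 library left out. For both agents against BO-112 the count of 0 became 3 with array quality weights and 4 in a fit to the 2 groups alone, and stayed 0 with any 1 library left out. For both agents against DMXAA the count of 3 became 0 in a fit to the 2 groups alone or without the 4 libraries, 2 with array quality weights, and 0 to 4 with 1 library left out. For the interaction the count of 4 became 2 with total count scaling, 0 without the 4 libraries, and 3 to 4 with 1 library left out. The cause of these changes was not tested, beyond the fewer samples that leaving libraries out implies. Total count scaling moved the median of all genes to -0.20 for BO-112 against vehicle, -0.11 for DMXAA against vehicle, 0.10 for both agents against BO-112 and 0.23 for the interaction. Relative to that median the interaction was -1.48 for Ifit1, -1.57 for Ifit2, -2.23 for Ifit3 and -2.57 for Ifit3b.

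A replicate block left the counts of called Ifit genes at 4, 2, 4, 0, 3, 4 and 4 in the order of comparisons above (BO-112, DMXAA and both against vehicle, both against BO-112 and DMXAA, BO-112 against DMXAA, interaction). Deviations of same-numbered tumours correlated at a mean r of 0.0152 over 21 pairs, from -0.212 to 0.255, so the numbers are not taken to pair them. Genes called over the whole table moved by over 1.5 times. For BO-112 against vehicle 2116 became 5006 with weights, 4320 with the groups alone and 1090 without the 4 libraries. For DMXAA 221 became 351 with weights, 93 with limma-voom, 105 with total count, 4 with the groups alone and 24 without the 4 libraries. For both against vehicle 473 became 1403 with weights and 748 with the groups alone. For both against BO-112 0 became 313, 362 and, with total count, 3. For both against DMXAA 157 became 4 and 1, and for BO-112 against DMXAA 3783 became 1262 and 791, with the groups alone and without the 4 libraries. For the interaction 239 became 114 with total count, 645 with weights and 36 without the 4 libraries. With 1 library left out the counts in the same order of comparisons ran from 1269 (without vehicle 3) to 3524 (DMXAA 2), from 25 (vehicle 1) to 376 (DMXAA 4), from 246 (vehicle 3) to 768 (DMXAA 2), from 0 to 32 (DMXAA 2), from 0 (both agents 1 or 2) to 1765 (DMXAA 1), from 1879 (DMXAA 3) to 5898 (DMXAA 1) and from 65 (vehicle 1) to 456 (DMXAA 2), so the shares of all genes called are not stable.

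Of the differences between members, 3 uncalled ones changed sign when 1 library was left out: Ifit2 less Ifit1 for both agents against vehicle (-0.0707 to 0.072), Ifit3 less Ifit1 for both against DMXAA (-0.130 to 0.171) and Ifit3b less Ifit3 for both against BO-112 (-0.0596 to 0.0180). Depth limits Ifnb1 and Ifit1bl2, not the 4 members.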
